A study of Mus musculus with 8 samples.

Results

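The RUNX transcription factors were followed through their 3 mouse genes, Runx1, Runx2 and Runx3, together with Cbfb, the gene of their shared partner CBFβ. These 4 genes were picked by name from the 53465 genes in the count table, and all 4 were among the 14301 genes that passed the filter on low counts. Expression was measured by poly(A) RNA sequencing in 8 libraries of 2 cell lines, B73 and B87, each derived from a primary pancreatic ductal adenocarcinoma (PDAC) of 1 mouse. The study asked how tumor cells respond when Smad4, the common mediator of TGFβ signaling, is restored.

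Both lines came from mice with Cre under the Ptf1a promoter, which acts in the pancreas, and carried a doxycycline (Dox)-inducible short hairpin RNA against Smad4 placed at the Col1a1 locus. The hairpin is driven by the rtTA3 transactivator, which is expressed from the Rosa26 locus together with the mKate2 reporter. Smad4 off denotes culture in Dox, and Smad4 on denotes culture that had been without Dox for 5 days when cells were plated, and stayed without it. Starting 24 h after plating, mouse TGFβ1 was added for 24 h at 100 pM or, in its place, SB505124, a kinase inhibitor that blocks type I TGFβ receptors, at 2.5 µM. Each of the 4 groups (Smad4 off or on, SB505124 or TGFβ1) held 2 libraries, 1 from each line. No group received neither agent, so every TGFβ1 effect here is the ligand set against the inhibitor. Libraries with a control hairpin were not analysed here, so that an effect of Dox itself cannot be told apart from that of the hairpin.

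RUNX proteins bind DNA through the Runt domain, and CBFβ, which does not contact DNA itself, strengthens that binding and shields the RUNX protein from degradation. RUNX1 is best known from blood formation, RUNX2 from bone formation, and RUNX3 from T cells, sensory neurons and epithelia of the gut. RUNX factors work with SMAD proteins on TGFβ- and BMP-responsive genes. Each RUNX gene has a distal and a proximal promoter, which give proteins that differ at the amino terminus, and gene-level counts cannot tell the 2 promoters apart.

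On genome build GRCm38, Runx1 (ENSMUSG00000022952) lies on the minus strand of chromosome 16 at 92601466 to 92826149, and Runx2 (ENSMUSG00000039153) on the minus strand of chromosome 17 at 44495987 to 44814797. Runx3 (ENSMUSG00000070691) lies on the plus strand of chromosome 4 at 135120652 to 135177990, and Cbfb (ENSMUSG00000031885) on the plus strand of chromosome 8 at 105170674 to 105217989. The start regions of these genes were compared because Runx2 is known, as background, to be bound by its own protein. RefSeq promoter windows of 300 bases (mostly upstream of the start, GRCm38.p6) were searched on both strands for the RUNX motif TGTGGT and the SMAD motif CAGAC. The 3 distal RUNX promoters each hold a run of 18 bases in common, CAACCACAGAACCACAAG, which contains 2 RUNX motifs on the opposite strand. It is shown here with its surroundings, 5′ to 3′ along each gene, with the RUNX motifs in capitals:

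Runx1 distal, chr16:92826025-92826054, minus strand: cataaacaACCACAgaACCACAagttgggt

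Runx2 distal, chr17:44814583-44814612, minus strand: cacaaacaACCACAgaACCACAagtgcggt

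Runx3 distal, chr4:135120503-135120532, plus strand: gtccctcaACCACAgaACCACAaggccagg

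The run starts 26 bases after the RefSeq start of Runx1 and 21 bases after that of Runx2, within the transcribed part of both, and lies 136 to 119 bases before that of Runx3. It was noticed after the expression values had been seen. Of all 32851 promoter windows, 4 (0.0122%) hold it. They are the windows of Runx1, Runx2 and Runx3 and that of Gm16225, whose start lies opposite that of Runx3 and whose window covers the same site. At least 2 RUNX motifs were found in 1.81% of all windows, and at least 1 in 16.8%. The Runx2 distal window holds 3 RUNX motifs in all, whereas none was found in the windows of the Runx1 proximal, Runx3 proximal and Cbfb starts. The SMAD motif was found in the Runx3 distal window (2 matches), the Runx3 proximal window (1) and the Cbfb window (1), and not in the 2 Runx1 windows or the Runx2 distal window. The Runx2 proximal promoter was not analysed here. This short motif is common, with at least 1 match in 49.6% of all windows. A match is a feature of the sequence and does not show that a protein binds there.

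**Figure D1:**
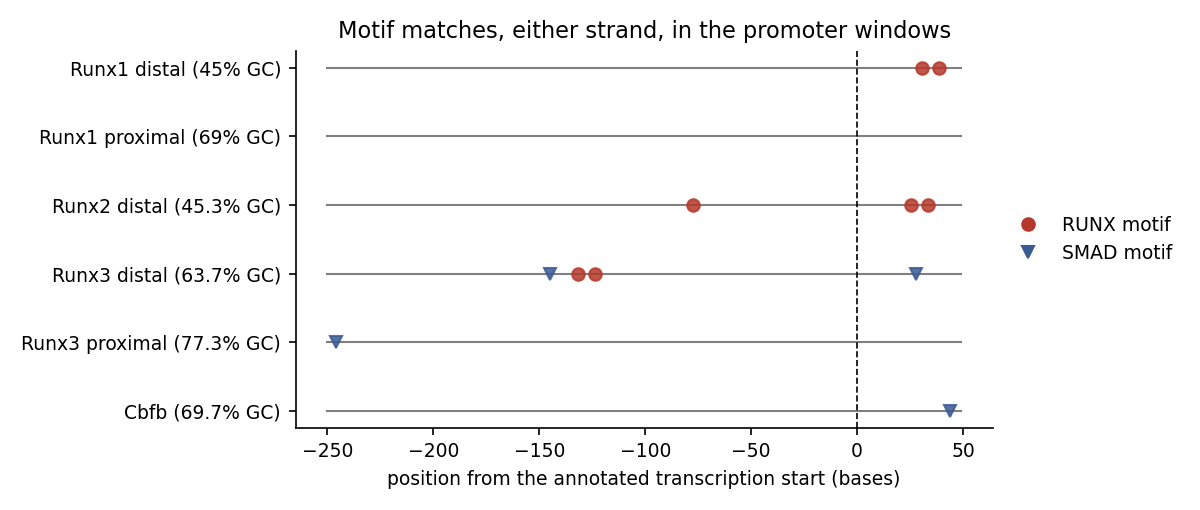
Positions of RUNX motifs (red circles) and SMAD motifs (blue triangles) on either strand in 6 promoter windows, in bases from the annotated start (dashed line), with the GC content of each window. Paired RUNX motifs appear in the 3 distal RUNX windows and in none of the 3 others.

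Total counts ranged from 18389235 to 23440550 per library, and 3 counts, taken as the floor of detection, correspond to 0.128 to 0.163 CPM (counts scaled to library size). Levels are given as CPM scaled by the trimmed mean of M values (TMM). The Smad4 gene followed the labels: its level was 33.7 to 35.5 CPM in the 4 libraries labelled Smad4 off and 97.4 to 117.0 CPM in the 4 labelled Smad4 on, so that 29.6% to 34.6% of the restored level remained on Dox. Of 10 ductal and epithelial markers, Krt8 and Krt18 (keratins) had at least 4744 counts in every library and Cdh1 (E-cadherin) 225 to 8673 counts, whereas Epcam had 3 to 39, Cldn7 at most 14 and Cldn4 0 to 906. The summed level of these 10 markers was 3975 to 6223 CPM in B73 and 1223 to 2113 CPM in B87. Of 10 blood cell markers, 8 had at most 3 counts in every library, and the summed level of all 10 was 1.33 to 6.54 CPM, most of it Cd68. For 7 osteoblast and chondrocyte markers the sum was 0.199 to 2.76 CPM. Summed fibroblast markers were 5.84 to 40.5 CPM in B73 and 51.6 to 668.4 CPM in B87, most of it Col1a1 in B87. Endothelial markers summed to 0.702 to 26.1 CPM, highest in Smad4 off cells under TGFβ1 (7.24 and 26.1 CPM). Whether markers that differ between lines or groups bear on the RUNX levels was not tested.

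Runx1 was higher under TGFβ1 than under SB505124 in both lines and in both Smad4 states. Under SB505124 its level was 64.8 CPM (B73) and 54.5 CPM (B87) with Smad4 off, and 56.8 and 53.8 CPM with Smad4 on. Under TGFβ1 it was 98.3 and 105.5 CPM with Smad4 off, and 148.5 and 148.7 CPM with Smad4 on. Both TGFβ1 groups lay above every SB505124 library, and the Smad4 on group lay above the Smad4 off group under TGFβ1, with no overlap. In such bulk libraries, more cells that express a gene and more mRNA per cell cannot be told apart. By group the order was Smad4 on with SB505124 (55.3 ± 2.2 CPM, SD, n = 2), Smad4 off with SB505124 (59.6 ± 7.3), Smad4 off with TGFβ1 (101.9 ± 5.1) and Smad4 on with TGFβ1 (148.6 ± 0.18), and only the first pair of neighbours overlapped. The SD of 0.18 CPM is below the error from counting reads alone, which was 1.85% in each of those 2 libraries.

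Runx2 also had its higher levels under TGFβ1, but over a narrower range. With SB505124 it stood at 54.6 CPM in B73 and 50.9 CPM in B87 with Smad4 off, and at 43.2 and 44.8 CPM with Smad4 on. With TGFβ1 the values were 75.8 and 69.7 CPM (Smad4 off) and 73.1 and 67.3 CPM (Smad4 on). The 2 TGFβ1 groups overlapped each other and lay above all 4 SB505124 libraries. Under SB505124 both Smad4 on libraries were below both Smad4 off libraries.

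Runx3 was the member in which the lines disagreed. In B73 its level was 18.3 CPM (Smad4 off) and 15.2 CPM (Smad4 on) under SB505124, and at 34.8 CPM (Smad4 off) and 23.0 CPM (Smad4 on) under TGFβ1. In B87 the same conditions gave 12.2, 15.5, 13.2 and 17.4 CPM. Thus Runx3 was lower with Smad4 on in B73 and higher with Smad4 on in B87, under both treatments. The group means (15.2 to 24.0 CPM) could not be ordered, since the SD within a group reached 15.3 CPM.

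Cbfb was nearly level across the conditions, with its highest value only 1.21 times its lowest, against 2.77 times for Runx1, 1.75 for Runx2 and 2.86 for Runx3. Smad4 off cells had 100.4 CPM in B73 and 102.3 CPM in B87 with SB505124, and 106.4 and 99.6 CPM with TGFβ1. Smad4 on cells had 90.3 and 87.7 CPM with SB505124, and 102.9 and 97.0 CPM with TGFβ1. The 2 libraries with Smad4 on and SB505124 were the lowest of the 8, and the other 3 groups overlapped.

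**Figure D2:**
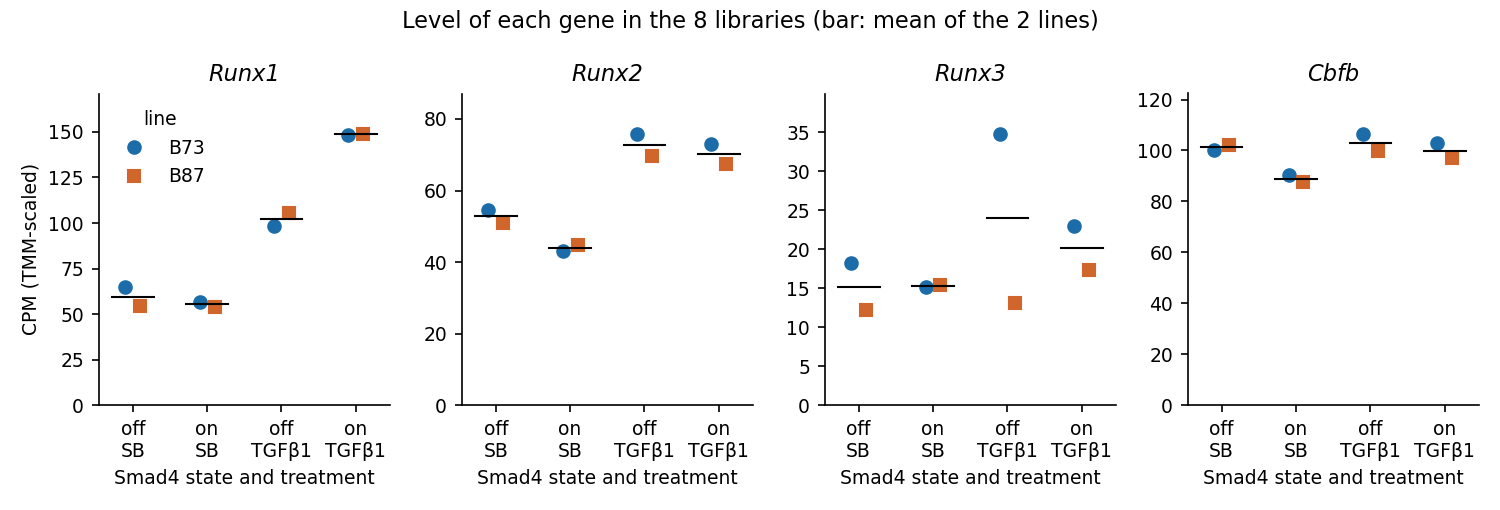
TMM-scaled CPM of Runx1, Runx2, Runx3 and Cbfb (vertical axes start at 0) in the 4 groups, with 1 point per library (circles B73, squares B87) and a bar at the mean of the 2 lines. Runx1 rises from 53.8 to 64.8 CPM under SB505124 to 148.5 and 148.7 CPM with Smad4 on and TGFβ1, Cbfb stays between 87.7 and 106.4 CPM, and the 2 lines separate in Runx3.

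What TGFβ1 does to these genes when Smad4 is present was asked by comparing TGFβ1 with SB505124 in Smad4 on cells. Runx1 rose 2.69-fold (log2 fold change 1.43 ± 0.10 SE, edgeR adjusted p = 0.000186), by 1.38 in B73 and 1.47 in B87 on the log2 scale. Runx2 rose 1.59-fold (log2 0.67 ± 0.087, edgeR adjusted p = 0.00176), with 0.76 in B73 and 0.59 in B87. For Runx3 the estimate was 0.35 ± 0.30 (adjusted p = 0.405 in edgeR), and its 95% interval of -0.36 to 1.06 includes both a small fall and a doubling. For Cbfb it was 0.17 ± 0.075 (adjusted p = 0.134 in edgeR), with an interval of -0.01 to 0.35. A count of 2 of 4 members past the threshold stands beside 33.2% of all tested genes, 15.6% of them higher under TGFβ1, so the count by itself sets the members little apart. In size, 4.35% of tested genes rose more than Runx1 and 11.2% more than Runx2. Of 9 epithelial markers tested in the same comparison, 3 passed, 1 as higher and 2 as lower, close to the share of all genes. Cldn4, at 0 to 906 counts, rose by 8.93 in B73 and 5.14 in B87 on the log2 scale (edgeR adjusted p = 0.000215). Cdh1 and Krt19 fell by 2.31 and 2.33, with edgeR adjusted p of 0.00936 and 0.000454. Krt8 (0.20) and Krt18 (0.52) did not pass. In B87, Cdh1 went from 80.5 to 11.5 CPM. The part of these changes in the RUNX levels was not tested.

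In Smad4 off cells, where 29.6% to 34.6% of the Smad4 mRNA remained, the same comparison again gave higher Runx1 and Runx2. Runx1 rose 1.71-fold (log2 0.78 ± 0.10, edgeR adjusted p = 0.00457), with 0.60 in B73 and 0.95 in B87. Runx2 rose 1.38-fold (log2 0.46 ± 0.087, edgeR adjusted p = 0.0172), with 0.47 and 0.45. The estimate for Runx3 was 0.59 ± 0.30 (adjusted p = 0.25 in edgeR), made up of 0.92 in B73 and 0.11 in B87, and that for Cbfb was 0.02 ± 0.075 (adjusted p = 0.876 in edgeR). Of all tested genes, 13.2% passed this threshold, and 6.96% passed as higher. The call for Runx1 was lost without the B87 library of Smad4 off cells under TGFβ1 (0.69, edgeR adjusted p = 0.0505). The call for Runx2 was lost on leaving out any 1 of the 4 libraries compared (edgeR adjusted p = 0.0607 to 0.137) and without the line in the model (edgeR adjusted p = 0.0725).

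What Smad4 adds in the presence of TGFβ1 was asked by comparing Smad4 on with Smad4 off under the ligand. Runx1 was 1.46-fold higher with Smad4 on (log2 0.54 ± 0.098, 95% interval 0.31 to 0.78, edgeR adjusted p = 0.0246), with 0.59 in B73 and 0.49 in B87. This was 1 of the 4 members, against 6.8% of all tested genes past the same threshold and 3.52% past it as higher, and 7.08% of tested genes rose more than Runx1. The rise stayed below the 2-fold limit that the study required of a differentially expressed gene. The call was lost on leaving out any 1 of the 4 TGFβ1 libraries (0.44 to 0.64, edgeR adjusted p = 0.0839 to 0.237) and without the line in the model (0.54, edgeR adjusted p = 0.129). Runx2 (-0.05, interval -0.26 to 0.15) and Cbfb (-0.04, interval -0.22 to 0.14) did not pass the edgeR test, with adjusted p of 0.77 and 0.776, and their intervals leave no room for a change as large as that estimated for Runx1. For Runx3 the estimate was -0.16 ± 0.30, with -0.60 in B73 and 0.40 in B87.

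With the receptor inhibited, no member passed the threshold for Smad4 on against off, which 1.59% of all tested genes did. Runx1 gave -0.11 ± 0.10 (adjusted p = 0.733 in edgeR) and Runx3 0.07 ± 0.30 (adjusted p = 0.951). Runx2 had -0.34 in B73 and -0.18 in B87 (edgeR adjusted p = 0.278), and Cbfb had -0.15 and -0.22 (edgeR adjusted p = 0.364). Before adjustment these 2 genes had p of 0.0213 and 0.0416 in edgeR, and 12.6% of all tested genes had an unadjusted p under 0.05.

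Whether Smad4 changes the response to TGFβ1 was asked of the difference of the Smad4 effects under TGFβ1 and under SB505124. For Runx1 the difference was 0.65 ± 0.14 on the log2 scale (0.78 in B73 and 0.51 in B87). It did not pass after adjustment over all genes (edgeR unadjusted p = 0.00245, adjusted p = 0.182), a test that 0.196% of tested genes passed, and 5.05% of genes had a larger positive difference. Across the alternatives its adjusted p ran from 0.0222 (DESeq2 with the line) to 0.926 (edgeR without the line), so that the call depends on the method. For Runx2 the difference was 0.21 ± 0.12, for Runx3 -0.23 ± 0.42 and for Cbfb 0.14 ± 0.11, with adjusted p of 0.625 to 0.896 in edgeR. These comparisons share libraries and are not independent of one another.

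**Figure D3:**
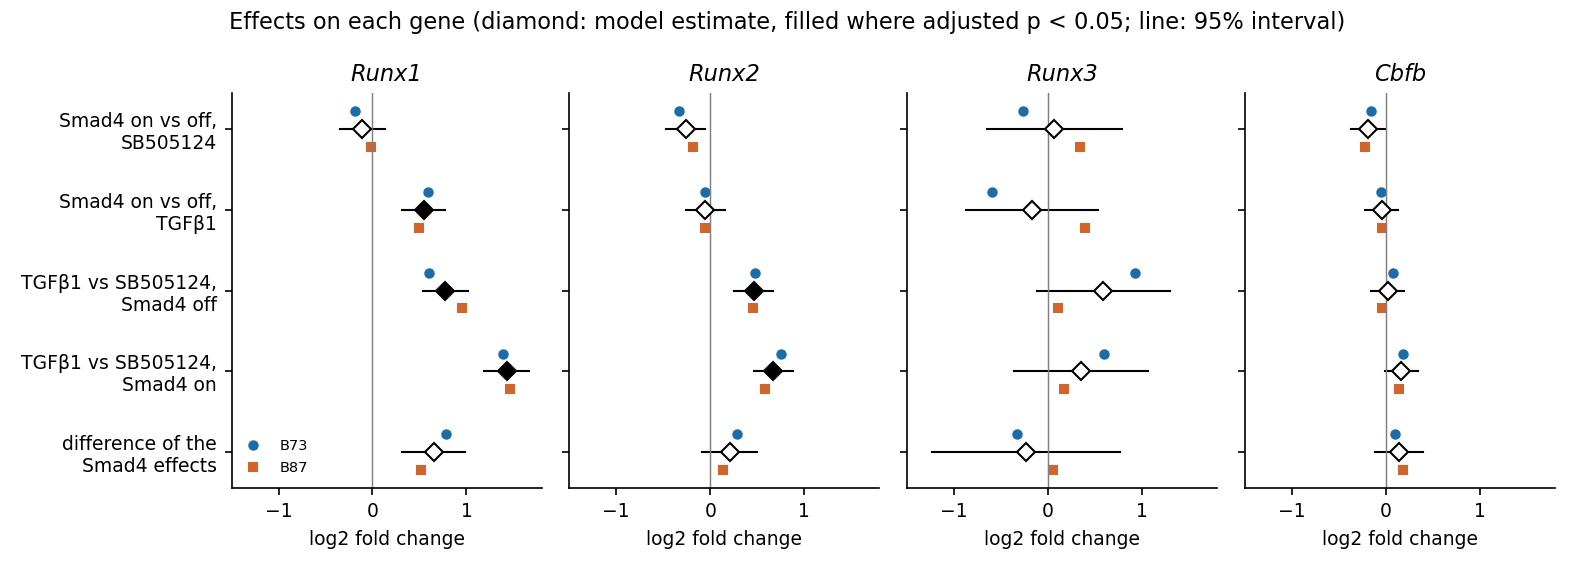
Log2 fold changes of the 4 genes in 5 comparisons: the model estimate (diamond, filled where edgeR's adjusted p is under 0.05) with its 95% interval, and the change within B73 (circle) and B87 (square). Runx1 passes in 3 comparisons and Runx2 in the 2 TGFβ1 comparisons, Cbfb lies close to 0 throughout, and the 2 lines lie on opposite sides of 0 for Runx3 in both Smad4 comparisons.

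The lines themselves were compared across the 4 conditions. Runx3 was 0.663 times as high in B87 as in B73 (log2 -0.59 ± 0.21, interval -1.10 to -0.09), which did not pass after adjustment (edgeR adjusted p = 0.107, unadjusted 0.0277), where 18.6% of all genes did. Runx1, Runx2 and Cbfb differed by -0.05, -0.07 and -0.05 on the log2 scale, with edgeR adjusted p of 0.476 to 0.658. A separate term for the line gave a Smad4 effect on Runx3 that was 0.81 ± 0.29 higher in B87 than in B73 (interval 0.12 to 1.51). It had an unadjusted p of 0.0282 and an adjusted p of 0.422 in edgeR, where 0.406% of all genes passed, so a difference between the lines is seen in the values but is not established by the test. For the TGFβ1 effect, 0 of the tested genes passed such a term in edgeR, with 1198 genes (8.38%) at an unadjusted p under 0.05, and Runx3 had -0.62 ± 0.38 and Runx1 0.22 ± 0.11.

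To set the genes beside one another, CPM was divided by the exon length in the count table (11827 bases for Runx1, 8837 for Runx2, 5003 for Runx3 and 3480 for Cbfb), giving CPM per kb. The summed level of the 3 RUNX genes was 12.7 to 15.3 CPM per kb in the 4 SB505124 libraries, 23.8 (B73) and 19.4 (B87) with Smad4 off and TGFβ1, and 25.4 and 23.7 with Smad4 on and TGFβ1. All 4 TGFβ1 libraries were above all 4 SB505124 libraries. The share of Runx1 in this sum was 35.8% to 37.7% under SB505124, 34.9% and 45.9% with Smad4 off and TGFβ1, and 49.4% and 53.1% with Smad4 on and TGFβ1. Runx1 therefore made up the largest share of RUNX mRNA in both lines only in the last of these groups, while Runx2 led in all 4 SB505124 libraries. Runx3 contributed 13.5% to 29.1%, the smallest share in every library.

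Cbfb, which supplies the partner of all 3, stood at 25.2 to 30.6 CPM per kb. Its ratio to the RUNX sum was 1.88 to 2.30 under SB505124 and fell to 1.28 and 1.47 with Smad4 off and TGFβ1 and to 1.16 and 1.18 with Smad4 on and TGFβ1. The TGFβ1 and SB505124 libraries did not overlap. These are ratios of mRNA levels per length, not of protein. They depend on the length chosen: by the longest annotated transcript (5861 bases for Runx1), the Runx1 share was 44.8% to 63.0%, Runx1 exceeded Runx2 in all 8 libraries, and the Cbfb ratio was 0.834 to 1.74. The order of the conditions was the same with either length.

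**Figure D4:**
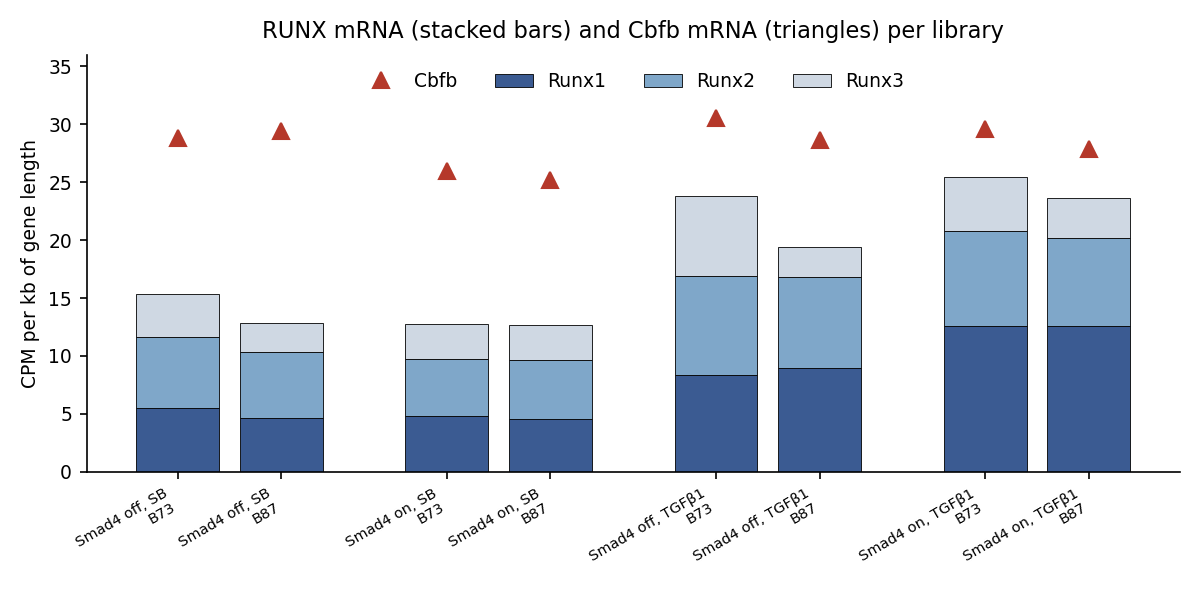
CPM per kb of exon length for Runx1, Runx2 and Runx3 (stacked bars from 0) and for Cbfb (triangles) in the 8 libraries, 2 per group. The RUNX sum is 12.7 to 15.3 under SB505124 and 19.4 to 25.4 under TGFβ1, and the Cbfb triangles stay at 25.2 to 30.6.

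Reads were checked for other genes that could share them. Of the 75-base stretches of each gene's transcripts, as long as the reads, 0.263% for Runx1, 5.13% for Runx2, 0.387% for Runx3 and 0 for Cbfb also occur in another gene. The chief partner of Runx2 is its antisense gene Runx2os1, which had 12 to 18 counts per library against 800 to 1768 for Runx2. Runx1t1, which is fused to RUNX1 in some human leukemias, had at most 1 count.

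Genes whose levels ran most like each member were sought among 11100 genes by the Pearson correlation over the 8 libraries, which share lines and treatments. For Runx1 these were Hk2 (r = 0.997), which encodes a hexokinase, Pik3c2a (0.996), a class II phosphoinositide 3-kinase, and Rbms2 (0.993), an RNA-binding protein. Runx2 ran with St6gal1 (0.996), a sialyltransferase, Tgif1 (0.984), a homeobox corepressor of SMAD signaling, and Il18rap (0.980). A correlation above 0.95 was found with 316 genes for Runx1 and 48 for Runx2, but with only 1 gene each for Runx3 (Tmem144, 0.961) and Cbfb (Mrpl36, 0.970). Between members, r was 0.878 for Runx1 and Runx2, 0.769 for Runx2 and Cbfb, and 0.438 to 0.585 for the 4 other pairs. With 4 groups and 2 lines, many genes that respond to TGFβ1 give a high r.

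Genes that act with RUNX proteins were described from 4 lists. Of 13 cofactors, such as the TLE corepressors and the histone acetyltransferases, 1 rose and 4 fell with TGFβ1 in Smad4 on cells (33.2% of all genes passed). With TGFβ1 in Smad4 off cells, and with Smad4 under TGFβ1 and under SB505124, 0 of the 13 passed. Of all tested genes, 13.2%, 6.8% and 1.59% passed these 3 comparisons, so the counts by themselves set the cofactors little apart. Hdac1, a histone deacetylase, had a log2 rise of 0.31 ± 0.073 (edgeR adjusted p = 0.0179). Tle2, a Groucho-type corepressor, fell by 1.20 (edgeR adjusted p = 0.00973), and the acetyltransferase genes Kat6a and Kat6b fell by 0.25 and 0.47. The median of the 13 was -0.10, against -0.02 for all genes.

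Of 17 transcription factors known to partner RUNX proteins, 15 were tested, since Gata1 and Pax5 had at most 1 count. With TGFβ1 in Smad4 on cells 5 rose and 3 fell (median 0.11), where 33.2% of all genes passed, and in Smad4 off cells 3 rose and 1 fell, where 13.2% of all genes passed. Jun, a subunit of AP-1, was at 29.4 to 62.5 CPM under SB505124, at 58.4 (B73) and 92.6 (B87) CPM with Smad4 off and TGFβ1, and at 83.8 and 161.2 CPM with Smad4 on and TGFβ1. It is higher in B87 than in B73 in each group, and within each line it follows the same order as Runx1 among the TGFβ1 groups. Its fitted rise with TGFβ1 was 1.43 ± 0.11 in Smad4 on cells (edgeR adjusted p = 0.00026), and 0.66 ± 0.11 for Smad4 under TGFβ1 (edgeR adjusted p = 0.0182). Fos, the other AP-1 subunit on the list, was low at 14 to 79 counts and was the only other of the 15 partners past the threshold for Smad4 under TGFβ1, which 6.8% of all genes passed (log2 1.85 ± 0.42, edgeR adjusted p = 0.0481). Hes1, a Notch target gene, rose by 1.05 with TGFβ1 in Smad4 on cells (edgeR adjusted p = 0.00254). In the same comparison Twist2, which encodes a bHLH factor that inhibits RUNX2, fell by 2.49 (edgeR adjusted p = 0.000967), from 14.1 CPM to 3.32 CPM in B73 and from 9.32 CPM to 1.12 CPM in B87, and Cebpb fell by 1.25.

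Of 16 genes whose products modify RUNX proteins or control their turnover, 5 rose and 5 fell with TGFβ1 in Smad4 on cells, with a median of 0.00, and in Smad4 off cells 5 rose and 0 fell, where 33.2% and 13.2% of all genes passed. Pim1, a kinase, rose by 1.6 ± 0.15 in Smad4 on cells (edgeR adjusted p = 0.00047), Mdm2, a ubiquitin ligase, by 1.07 ± 0.094 (edgeR adjusted p = 0.000358), and Smurf2, a ubiquitin ligase of SMAD and RUNX proteins, by 1.00 ± 0.091 (edgeR adjusted p = 0.000436). The same 3 genes were higher with Smad4 on under TGFβ1, by 0.72, 0.66 and 0.45, with edgeR adjusted p of 0.0107 to 0.0352 (3 higher and 1 lower of 16, where 6.8% of all genes passed). Src, a tyrosine kinase, went the other way: it was at 247.0 CPM (B73) and 205.9 CPM (B87) with Smad4 off and at 142.3 and 115.5 CPM with Smad4 on under SB505124, and at 345.1 and 306.9 against 268.0 and 233.4 CPM under TGFβ1. It was thus higher under TGFβ1 than under SB505124 (0.96 in Smad4 on cells, edgeR adjusted p = 0.000278). With Smad4 on it was lower than with Smad4 off (-0.81 under SB505124 and -0.38 under TGFβ1, edgeR adjusted p = 0.00572 and 0.0344). An effect of Dox itself cannot be told apart here.

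Of 24 genes reported as RUNX targets, mostly in blood, bone or T cells, only 8 had counts enough to be tested, and the other 16 had at most 6 counts in any library. Of the 8, 3 rose and 1 fell with TGFβ1 in Smad4 on cells (median 0.14), 4 rose in Smad4 off cells, 2 were higher and 1 lower with Smad4 on under TGFβ1 (median 0.37, against -0.01 for all genes), and 2 were higher with Smad4 on under SB505124. Of all tested genes, 33.2%, 13.2%, 6.8% and 1.59% passed these comparisons in the same order. Csf2, which encodes the cytokine GM-CSF, had 1 to 7 counts in the SB505124 libraries, 146 (B73) and 69 (B87) with Smad4 off and TGFβ1, and 313 and 62 with Smad4 on and TGFβ1. Its rise passed in Smad4 on cells (edgeR adjusted p = 0.000985) and Smad4 off cells (edgeR adjusted p = 0.00739). For Smad4 under TGFβ1 its log2 change was 1.34 in B73 and -0.12 in B87. The fitted change, 0.70 ± 0.42, did not pass (edgeR adjusted p = 0.363).

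Spp1, which encodes osteopontin, was far lower with Smad4 on under TGFβ1. It was at 2750 CPM (B73) and 1536 CPM (B87) with Smad4 off and at 235.4 and 266.9 CPM with Smad4 on, a fitted log2 change of -3.01 ± 0.30 (edgeR adjusted p = 0.00369). Under SB505124 it was at 1218 and 568.0 CPM with Smad4 off and at 359.7 and 307.1 CPM with Smad4 on (-1.35, edgeR adjusted p = 0.0882). Cdkn1a, the cell cycle inhibitor p21, rose by 1.24 with TGFβ1 in Smad4 on cells and by 1.07 in Smad4 off cells, with edgeR adjusted p of 0.00411 and 0.0174. Zbtb7b, a factor of T helper cell fate, fell by 0.27 with TGFβ1 in Smad4 on cells and was 0.40 higher with Smad4 on under TGFβ1 (edgeR adjusted p = 0.0343 and 0.0301). With Smad4 on under SB505124, Zbtb7b was higher by 0.60 (edgeR adjusted p = 0.0163). Col1a1, a collagen chain and the locus that carries the hairpin, passed as higher in all 4 of these comparisons, and had 7 to 100 counts in B73 but 590 to 12305 in B87.

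**Figure D5:**
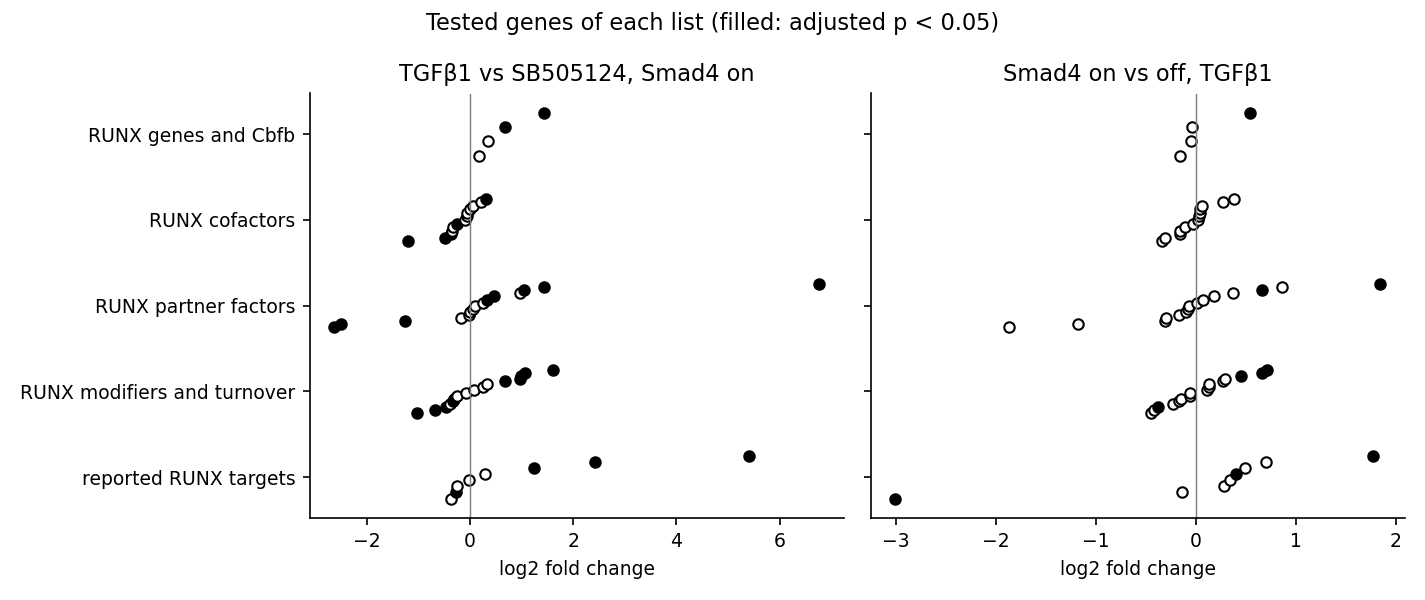
Log2 fold changes of the RUNX genes with Cbfb and of the tested genes of 4 lists, for TGFβ1 against SB505124 in Smad4 on cells and for Smad4 on against off under TGFβ1, 1 point per gene, filled where edgeR's adjusted p is under 0.05. Lists hold points on both sides of 0. The 13 cofactors have 5 filled points in the first comparison and 0 in the second, where 33.2% and 6.8% of all tested genes passed.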

How the data were processed

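Per the labels, poly(A) RNA was made into stranded libraries and read as 75-base single reads. The authors trimmed reads (Trimmomatic 0.36), aligned them to mm10 (GRCm38; STAR 2.5.3a) and counted reads per gene (featureCounts 1.6.3). The deposited values are raw counts. Strand and multi-mapping settings are not given in the sources used here. All 8 libraries were fitted in edgeR 4.0.16 (R 4.3.3) with TMM, filterByExpr, terms for group and cell line (3 residual degrees of freedom), the quasi-likelihood F-test and Benjamini-Hochberg adjustment over 14301 genes. A gene passed at an adjusted p under 0.05.

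The line pairs the libraries: each line went through all 4 conditions, and libraries of a line deviated together (median r = 0.758 over 6 pairs of groups, 0.642 to 0.774). No source says that libraries came from more than 1 culture, so p-values measure the spread between these libraries. DESeq2 1.42.0, other filters, scalings and gene lengths, no line term and fewer libraries were alternatives. The table's gene length equals the union of GENCODE M21 exons in 95.6% of 53274 genes. On simulated data, false calls were near the nominal share with trended dispersions and well above it with gene-wise dispersions, so an adjusted p close to 0.05 may overstate the evidence.

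The 4 genes and all lists were chosen with earlier results of these data known. Of each list, the genes named are up to 4 past the threshold with the smallest p for TGFβ1 in Smad4 on cells, and up to 4 past it for Smad4 under TGFβ1. Runx1t1, Gata1, Pax5 and single cell type markers were named outside this rule, after their values were seen.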

Additional observations from a re-analysis of the deposited data

Results flagged for a closer look

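The Smad4 effect on Runx3 had opposite signs in the 2 lines. It was -0.60 in B73 and 0.40 in B87 under TGFβ1, and -0.27 in B73 and 0.34 in B87 under SB505124 (log2). The difference, B87 minus B73, was 0.81 ± 0.29 and did not pass after adjustment over all genes (edgeR unadjusted p = 0.0282, adjusted p = 0.422). With 1 library per line and condition, the library and the line cannot be told apart within a condition.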

How the results depend on the processing

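The rises of Runx1 and Runx2 with TGFβ1 in Smad4 on cells passed under all 15 alternatives, with adjusted p of at most 0.00297 and 0.0158. Libraries of a line are paired, and without the line as a replicate block edgeR lost the calls for Runx1 with Smad4 under TGFβ1 (0.54, adjusted p = 0.129) and for Runx2 with TGFβ1 in Smad4 off cells (0.46, adjusted p = 0.0725); for the members it changed no other call. The Runx1 difference of Smad4 effects passed with DESeq2 and the line (0.65, adjusted p = 0.0222) and with no filter on low counts (0.63, adjusted p = 0.0336). With no filter, Runx3 also passed for the line difference (-0.59, adjusted p = 0.00748) and, in an alternative chosen after seeing the data, for the difference of its Smad4 effect between lines (0.83, adjusted p = 0.00519). The cause was not tested.

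Leaving out each library in turn gave 0.44 to 0.64 for Runx1 with Smad4 under TGFβ1, 0.66 to 0.91 for Runx1 and 0.43 to 0.51 for Runx2 with TGFβ1 in Smad4 off cells. Signs changed within these ranges, none of whose fits passed: Runx3 with Smad4 under TGFβ1 (-0.64 to 0.45) and under SB505124 (-0.36 to 0.45), Runx3 with TGFβ1 in Smad4 on cells (-0.016 to 0.79) and in Smad4 off cells (-0.026 to 1.07), Runx3 for the difference of Smad4 effects (-0.69 to 0.40), Runx1 with Smad4 under SB505124 (-0.23 to 0.026), Cbfb with TGFβ1 in Smad4 off cells (-0.024 to 0.083), Runx1 between lines (-0.11 to 0.014), and the line-by-Smad4 term of Runx1 (-0.13 to 0.21) and Cbfb (-0.099 to 0.042). A group left with 1 library was assumed to vary like the others.

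By the longest transcript, the mean Runx1 share of the RUNX sum was 45.7% with Smad4 off and 46.7% with Smad4 on in SB505124, and 50.4% and 61.3% in TGFβ1, and the Cbfb ratio was 1.59 and 1.52 under SB505124 and 1.03 and 0.835 under TGFβ1.

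Counts of genes past the threshold moved more than the members did. For Smad4 under TGFβ1, 973 genes passed, against 43 with no block, 1477 with DESeq2 and the line, 1887 with no filter and 171 to 429 without any 1 of the libraries compared. For Smad4 under SB505124 the count was 228, against 2, 491 and 792 in the same order, 136 with at least 10 counts in every library, 75 in a fit of the 4 libraries compared and 47 to 126 without any 1 of them. For TGFβ1 it was 4751 in Smad4 on cells (2180 with no block, 2647 to 3022 without any 1 library compared) and 1888 in Smad4 off cells (270 with no block, 1165 with DESeq2 and no block, 472 to 1173 without any 1). For the difference of Smad4 effects it was 28, against 0 with no block, 270 with DESeq2 and the line, 68 with DESeq2 and no block, 440 with no filter and 0 to 14 without any 1 library. The line difference had 2660 genes, and 1644 to 1664 when any 1 of 4 libraries was left out. With 2 lines, the lines cannot stand for PDAC in general.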
